A study of Mus musculus with 12 samples.

Results

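The let-7 family with miR-98 was followed after X-ray irradiation of LLC1, a line of mouse Lewis lung carcinoma cells kept in culture. The members were taken by name, as the 8 let-7 guide strands (let-7a, b, c, d, e, f, g and i, all 5p) and miR-98-5p. These are 9 of the 576 entries on the array. MicroRNA was measured on Agilent arrays in a single colour, with 100 ng of Cy3-labelled total RNA per array and 3 arrays in each of 4 groups. Untreated cells served as control, and cells of the other groups received 2 Gy once, 10 Gy once, or 2 Gy in each of 5 fractions (5x2 Gy, a total of 10 Gy). RNA was taken 4 h after irradiation. The arrays within a group are labelled biological replicates of 1 line, with no word on whether the cultures were separate. P-values then measure only the spread between these arrays, and all groups share the limits of a single cultured line.

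The let-7 miRNAs are among the most conserved animal miRNAs. Their guide strands pair through a shared seed with mRNAs that include those of Ras, Myc and Hmga2 proteins, and so hold back growth and keep cells differentiated. Lin28 proteins block the maturation of let-7 precursors in stem cells and in many tumours, and let-7 is often low in lung cancer. MiR-98 carries the same seed and is counted in the family.

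The mature sequences are shown because the members differ by so few bases that the sequence itself may limit what an array can tell apart. They come from RefSeq (GRCm38.p6), which matched 9 of 9 members, and are written 5′ to 3′ with the seed, bases 2 to 8, in capitals.
mmu-let-7a-5p: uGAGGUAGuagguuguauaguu
mmu-let-7b-5p: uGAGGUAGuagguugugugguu
mmu-let-7c-5p: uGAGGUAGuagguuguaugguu
mmu-let-7d-5p: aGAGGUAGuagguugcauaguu
mmu-let-7e-5p: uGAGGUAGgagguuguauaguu
mmu-let-7f-5p: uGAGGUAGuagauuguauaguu
mmu-let-7g-5p: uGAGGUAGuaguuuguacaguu
mmu-let-7i-5p: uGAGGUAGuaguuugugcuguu
mmu-miR-98-5p: uGAGGUAGuaaguuguauuguu

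All 9 sequences are 22 bases long and share the seed GAGGUAG. Of the 576 array entries, 466 matched a mature sequence in that table, and 0 outside the family held this seed. MiR-202-3p shared bases 2 to 7 only. Positions below are counted from 1 at the 5′ end, with the base of let-7a first. Let-7c differs from let-7a by A19G, let-7e by U9G and let-7f by G12A. Let-7b differs by A17G and A19G, let-7d by U1A and U16C, let-7g by G12U and U18C, and miR-98 by G11A and A19U. Let-7i is the farthest from let-7a, with G12U, A17G, U18C and A19U. Over the 36 pairs of members, 4 pairs differ by 1 base, 10 by 2, 11 by 3, 9 by 4, 1 by 5 and 1 by 6. How far a probe for one member also binds another was not tested.

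A level here is the log2 of the processed spot signal relative to the array's 75th percentile, which is computed from the 78 probes that every array detected. Detection of a probe means that a share over 0.5 of its spots carried the scanner's flag for well above background. Levels of different members are not set against each other, because each probe binds its target with its own strength. Each member was read by 2 probes with 10 spots each. The 8 let-7 members were detected on 12 of 12 arrays, and miR-98-5p on 9. That percentile ran from 110.5 to 1102 intensity units across arrays, and the arrays detected 48 to 137 miRNAs each. Control replicate 2, the dimmest array, detected only those 78 probes, and 48 miRNAs. This array alone therefore fixed the probes of the percentile and the miRNAs counted below as detected on all arrays. The 5x2 Gy arrays were the brightest (1004 to 1102), the controls spanned 110.5 to 703.3, and the 2 Gy and 10 Gy arrays 306.7 to 897.3. Slide 1 held the arrays of control and 2 Gy with replicates 1 and 2 of 10 Gy, and slide 2 held those of 5x2 Gy with replicate 3 of 10 Gy. Slide and schedule therefore coincide wholly in 5x2 Gy minus control, and almost wholly over all 4 groups.

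**Figure D1:**
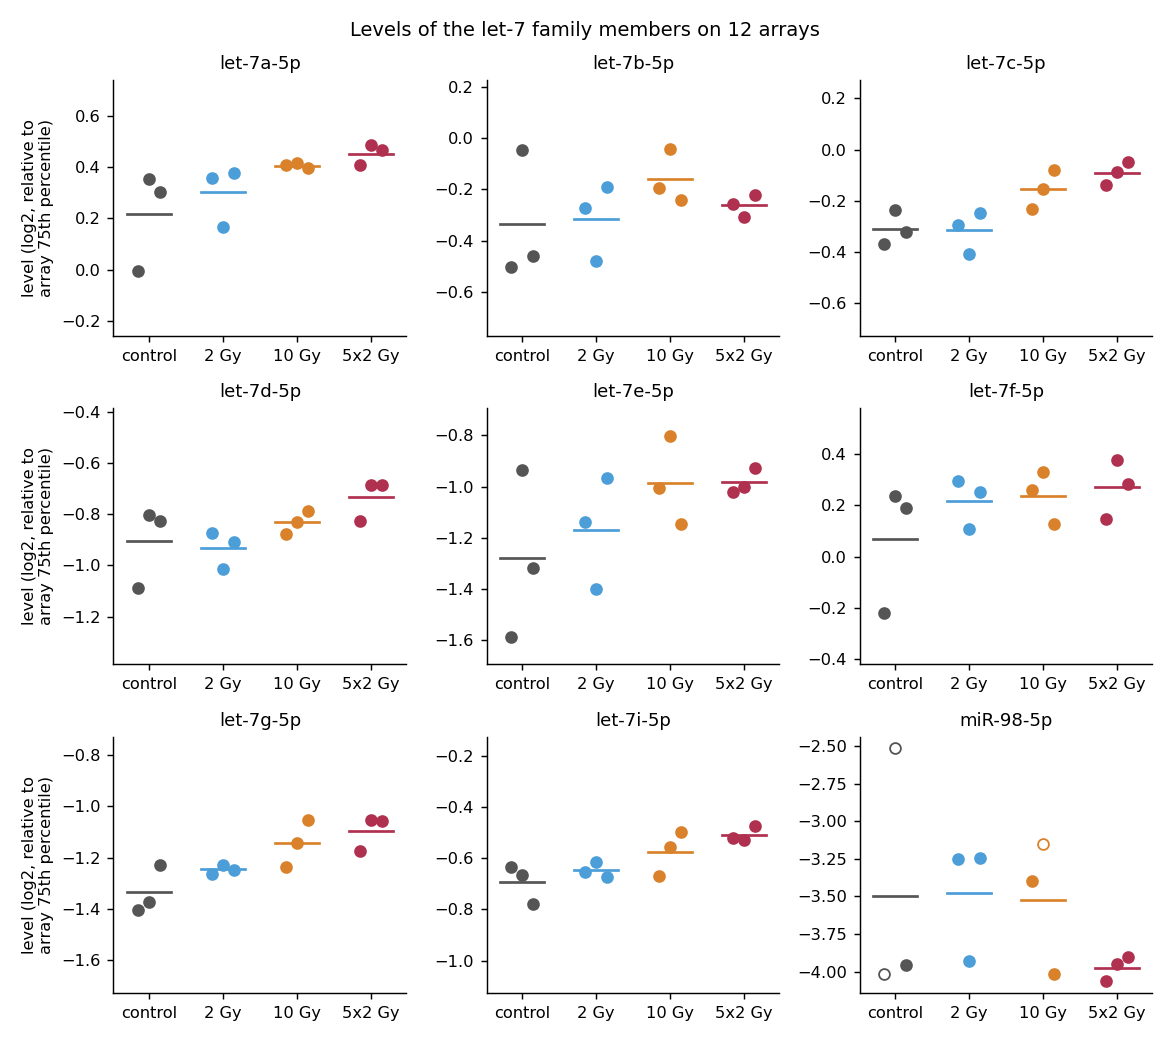
Level of each let-7 member (log2, relative to the array's 75th percentile) on the 3 arrays of each group, with the group mean as a line; points of a group stand in replicate order and open points mark arrays where the member was not detected. All let-7 panels span the same log2 distance, and let-7c, let-7g and let-7i of the 5x2 Gy group lie above all 3 control arrays, while the miR-98-5p panel has a wider scale.

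After 5x2 Gy, let-7c, let-7g and let-7i were slightly higher than in control, by 1.16-, 1.18- and 1.14-fold, with the groups on different slides. The other 6 members did not pass the test. The test was limma across all 118 miRNAs that were detected on every array of at least 1 group, with all 12 arrays in 1 fit and a Benjamini-Hochberg adjusted p under 0.05 as the threshold. The 5x2 Gy arrays detected 120 to 137 miRNAs and the controls 48 to 99, so a miRNA could enter through 5x2 Gy alone. One at the floor on all control arrays could not come out lower, which shapes the shares over all tested. The 3 of 9 members called stand beside 12.7% of all 118 tested, and every one of those 15 miRNAs was higher after 5x2 Gy. Of the 40 other miRNAs detected on all arrays, 7 were called.

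Let-7g (mmu-let-7g-5p) measured -1.40, -1.37 and -1.23 on control replicates 1, 2 and 3, and -1.18, -1.05 and -1.06 on the 5x2 Gy replicates. The groups did not overlap, and the closest arrays were control replicate 3 and 5x2 Gy replicate 1. The change was 0.24 (SE 0.059, 95% interval 0.10 to 0.38, limma adjusted p = 0.0379). Let-7c (mmu-let-7c-5p), 1 base away from let-7a and encoded in part beside miR-99a and miR-125b-2, measured -0.37, -0.24 and -0.32 on the controls and -0.14, -0.089 and -0.048 after 5x2 Gy. All 3 irradiated arrays were above all 3 controls, with a change of 0.22 (SE 0.055, 95% interval 0.091 to 0.34, limma adjusted p = 0.0379). Let-7i (mmu-let-7i-5p) measured -0.64, -0.67 and -0.78 on the controls and -0.52, -0.53 and -0.47 after 5x2 Gy. Again no arrays overlapped, and the change was 0.19 (SE 0.049, 95% interval 0.073 to 0.30, limma adjusted p = 0.0407). Both probes of each of these members were higher, by 0.21 and 0.26 for let-7g, 0.22 and 0.21 for let-7c, and 0.16 and 0.21 for let-7i.

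Let-7a measured -0.0037, 0.35 and 0.30 on the controls and 0.41, 0.49 and 0.47 after 5x2 Gy. Its groups did not overlap, but control replicate 1 lay far below the other controls, and the change of 0.24 (95% interval 0.029 to 0.44) had a limma adjusted p of 0.128. With let-7a, 4 of 9 members had higher and non-overlapping groups, against 28% of all tested miRNAs, and the same 4 had an unadjusted p under 0.05 in limma, against 30.5%. Positive values were found for 8 of 9 members and 50% of all tested. The shares over all tested, here and below, include miRNAs near the floor. One at the floor in both groups has a change of 0 and is not counted as positive. Of the 40 other miRNAs detected on all arrays, 16 had higher and non-overlapping groups. Among the same 40, 17 had an unadjusted p under 0.05 in limma in either direction, and 24 had positive values. Let-7f, which neighbours let-7a-1 and let-7d in the genome, measured -0.22, 0.24 and 0.19 on the controls and 0.15, 0.38 and 0.28 after 5x2 Gy. The groups overlapped and control replicate 1 was again the low array (change 0.20, limma adjusted p = 0.322). Let-7d measured -1.09, -0.80 and -0.83 on the controls and -0.83, -0.69 and -0.69 after 5x2 Gy, with overlap (change 0.17, 95% interval -0.0078 to 0.35, limma adjusted p = 0.175).

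Let-7e, encoded between miR-99b and miR-125a, had the widest spread among the let-7 members. It measured -1.59, -0.94 and -1.32 on the controls and -1.02, -0.999 and -0.93 after 5x2 Gy. One control array reached the irradiated range, and the change of 0.30 had an interval from -0.094 to 0.69 (limma adjusted p = 0.279). Let-7b, the neighbour of let-7c-2, measured -0.50, -0.046 and -0.46 on the controls and -0.26, -0.31 and -0.22 after 5x2 Gy. Control replicate 2 exceeded all irradiated arrays, and the change was 0.074 (95% interval -0.21 to 0.36, limma adjusted p = 0.865). Its probes gave -0.010 and 0.16, the only pair among the 8 let-7 members with opposite signs in this comparison.

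The calls after 5x2 Gy changed with the scaling, the floor, the slide block, the brightness of the arrays and the arrays included. With the slide as a block, where 10 Gy replicate 3 alone links the slides, the changes were 0.10 for let-7c, 0.10 for let-7g and 0.071 for let-7i, and 0 of 9 members were called (limma adjusted p of 0.687, 0.718 and 0.781). Over 26 alternative settings let-7c ran from 0.10 to 2.04 (adjusted p 0.00757 to 0.687), let-7i from 0.019 to 2.01 (0.0103 to 0.915) and let-7g from -0.066 to 2.07 (0.0102 to 0.718), the only negative value being that of let-7g with normexp background correction. The largest values come from scalings that moved all miRNAs together: with the percentile over all probes the median of the 71 miRNAs above the floor was 1.64 and let-7c was at 1.86. With array brightness as a covariate 3 members were called, but of the 3 above this held for let-7c alone (0.27, limma adjusted p = 0.0346), joined by let-7b (0.36, 0.0252) and let-7e (0.64, 0.0252). Let-7g was then at 0.15 (limma adjusted p = 0.156) and let-7i at 0.19 (0.0931). With 1 control array left out, 1 member was called in each case. Without replicate 1, 2 or 3 of 2 Gy the count was 0, 2 and 1, of 10 Gy 3, 0 and 3, and of 5x2 Gy 1, 0 and 0. Of all 118 tested miRNAs, 11, 15 and 16 were called without control replicates 1, 2 and 3. In the same order the totals were 10, 15 and 12 for 2 Gy, 13, 9 and 16 for 10 Gy, and 8, 7 and 8 for 5x2 Gy.

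**Figure D2:**
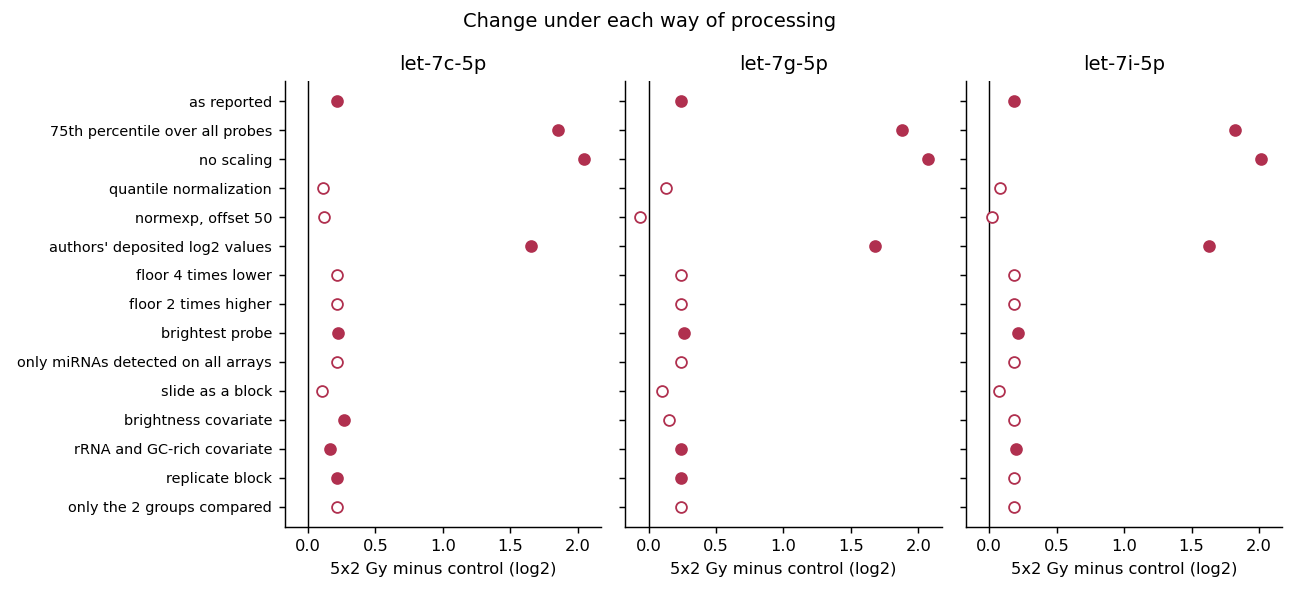
Change of let-7c, let-7g and let-7i in 5x2 Gy minus control (log2) under each way of processing, with filled points where the limma adjusted p was under 0.05. Values with all probes, without scaling and from the authors' deposited log2 table lie between 1.63 and 2.07, and with the slide as a block between 0.071 and 0.10.

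After a single dose of 10 Gy no member passed the test against control, where 0.847% of the 118 tested miRNAs did. Positive values were found for 8 of 9 members, all but miR-98-5p, against 40.7% of all tested. Let-7a measured 0.41, 0.42 and 0.39 after 10 Gy and let-7c -0.23, -0.15 and -0.081, each above all of its control arrays. These 2 of 9 members with higher, non-overlapping groups stand beside 8.47% of all tested. Their changes were 0.19 for let-7a (95% interval -0.019 to 0.40, limma adjusted p = 0.273) and 0.15 for let-7c (0.028 to 0.28, limma adjusted p = 0.236). Let-7g measured -1.24, -1.14 and -1.05, a change of 0.19 (95% interval 0.054 to 0.33, limma adjusted p = 0.201). Let-7i measured -0.67, -0.56 and -0.50, a change of 0.12 (95% interval 0.0056 to 0.23, limma adjusted p = 0.236). Both overlapped with control at the low end, through 10 Gy replicate 1. Replicate 3, the only 10 Gy array on slide 2, was the highest 10 Gy array for let-7c, let-7g and let-7i. For let-7a it was the lowest. Limma found 3 of 9 members, let-7c, let-7g and let-7i, at an unadjusted p under 0.05, against 20.3% of all tested. Of the 40 other miRNAs detected on all arrays, 22 had positive values and 3 had higher, non-overlapping groups. Among the same 40, 11 had an unadjusted p under 0.05 in limma in either direction.

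The other let-7 members after 10 Gy spread more widely. Let-7e measured -1.005, -0.80 and -1.15 (change 0.30, 95% interval -0.096 to 0.69, limma adjusted p = 0.387). Let-7b measured -0.19, -0.041 and -0.24 (change 0.18, limma adjusted p = 0.537) and let-7f 0.26, 0.33 and 0.13 (change 0.17, limma adjusted p = 0.55). Let-7d measured -0.88, -0.83 and -0.79, the smallest change among the let-7 members at 0.074 (95% interval -0.10 to 0.25, limma adjusted p = 0.666). Each of these 4 overlapped with control. Replicate 3, on slide 2, was the highest 10 Gy array for let-7d and the lowest for let-7b, let-7e and let-7f. Within slide 1 the median change of the 9 members was 0.19, with 9 of 9 positive. With array brightness as a covariate 2 of 9 members were called higher, let-7b (0.28, limma adjusted p = 0.0269) and let-7e (0.42, limma adjusted p = 0.0445). That fit called 26 of all 118 tested miRNAs, 14 of them higher. In each other setting run, 0 members were called after 10 Gy.

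After 2 Gy no member passed the test, where 0% of all tested miRNAs did, and limma found 0 of 9 members at an unadjusted p under 0.05, against 9.32% of all tested. Let-7a measured 0.36, 0.17 and 0.38, let-7f 0.29, 0.11 and 0.25, and let-7b -0.27, -0.48 and -0.19. Replicate 2, the brightest of the 2 Gy arrays, was lowest for each of them, as it was for let-7e (-1.14, -1.40 and -0.96), let-7c (-0.29, -0.41 and -0.25) and let-7d (-0.87, -1.01 and -0.91). Let-7g (-1.26, -1.23 and -1.25) and let-7i (-0.65, -0.62 and -0.67) were tightly spread, with replicate 2 the highest array of the group. Changes against control ran from -0.027 for let-7d to 0.15 for let-7f, and the limma adjusted p from 0.640 to 1. All 9 members overlapped with control, while 4.24% of all tested miRNAs had higher, non-overlapping groups. Values were positive for 7 of 9 members, 42.4% of all tested and 21 of the 40 other miRNAs detected on all arrays.

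**Figure D3:**
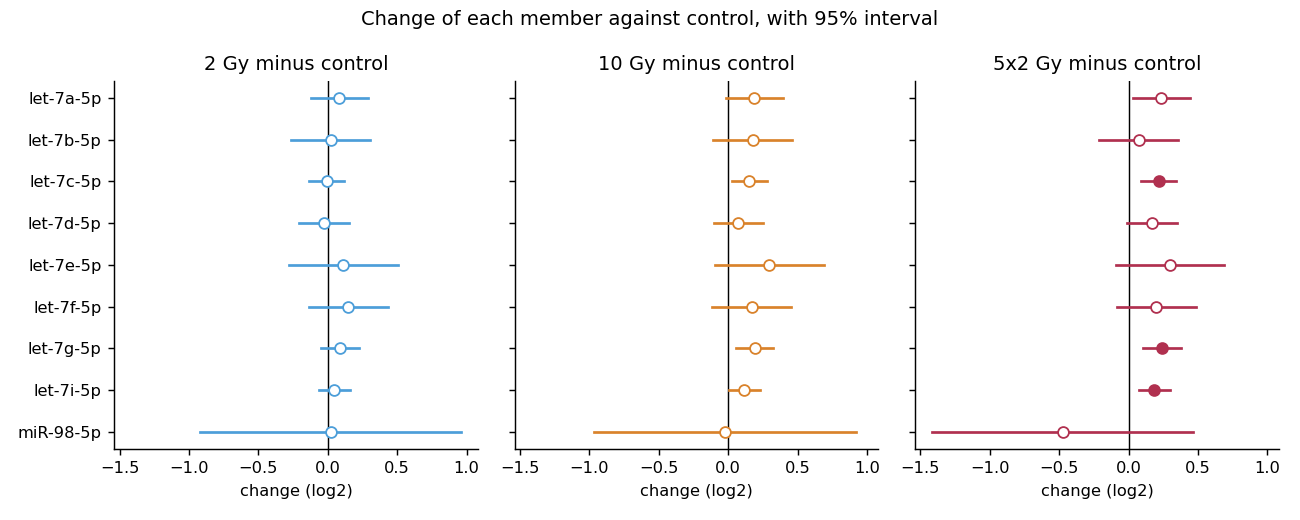
Change of each member against control (log2, points) with its 95% interval (lines) after 2 Gy, 10 Gy and 5x2 Gy; filled points passed limma's adjusted p of 0.05. Only let-7c, let-7g and let-7i in 5x2 Gy minus control are filled, and the intervals of miR-98-5p are the widest in each panel.

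The single and fractionated schedules of 10 Gy in total were compared directly. No member passed the test (limma adjusted p of 0.576 to 1), where 2.54% of all tested miRNAs did, all of them higher after 5x2 Gy. The changes of the 8 let-7 members ran from -0.10 for let-7b to 0.097 for let-7d. The interval of let-7i, the narrowest, was -0.044 to 0.18, and that of let-7g was -0.087 to 0.19. No member had non-overlapping groups, against 25.4% of all tested with higher ones, and limma found 0 of 9 at an unadjusted p under 0.05, against 15.3%. Higher, non-overlapping groups were found for 16 of the 40 other miRNAs detected on all arrays. Limma put 10 of these 40 at an unadjusted p under 0.05 in either direction. Values were positive for 7 of 9 members, 54.2% of all tested and 26 of the 40 other miRNAs detected on all arrays. Within the slide that holds 10 Gy replicate 3 and the 5x2 Gy arrays, let-7c was at -0.012, let-7g at -0.042 and let-7i at -0.0084 (an alternative chosen after the data were seen).

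Between the single doses, 10 Gy minus 2 Gy, no member passed either, as for 0% of all tested. For let-7c all 3 arrays at 10 Gy lay above all 3 at 2 Gy (0.16, 95% interval 0.035 to 0.29, limma adjusted p = 1). The same held for let-7a (0.10, limma adjusted p = 1), and these 2 of 9 members stand beside 4.24% of all tested with higher groups that did not overlap. Limma found 1 of 9 members, let-7c, at an unadjusted p under 0.05, where 1.69% of all tested were. Of the 40 other miRNAs detected on all arrays, 3 had higher, non-overlapping groups and 1 had an unadjusted p under 0.05 in limma.

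Group means rose in the order control, 2 Gy, 10 Gy for 6 of 9 members, let-7a, b, e, f, g and i. The same order held for 25.4% of all tested miRNAs and for 37.5% of the 40 other miRNAs detected on all arrays. Let-7c and let-7d had lower means at 2 Gy than in control by 0.0074 and 0.027, less than the SD of either group. Most neighbouring steps were also within the spread. For let-7a the means were 0.22 ± 0.19, 0.30 ± 0.12, 0.41 ± 0.011 and 0.45 ± 0.041 (SD, n = 3) for control, 2 Gy, 10 Gy and 5x2 Gy. For let-7g they were -1.33 ± 0.094, -1.25 ± 0.018, -1.14 ± 0.092 and -1.10 ± 0.069 (SD, n = 3). The SD of let-7a was widest in control and narrowest at 10 Gy.

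Over the 9 members the median change was 0.046 after 2 Gy, 0.17 after 10 Gy and, in the 5x2 Gy group, 0.20. The medians over all 118 tested miRNAs were 0, 0 and 0.00040. These include miRNAs at the floor in both groups, whose change is 0 through the floor. The 40 other miRNAs detected on all arrays, which like let-7 lie above background, had medians of 0.019, 0.027 and 0.14. These comparisons share the control arrays. The family median turned negative with normexp after 2 Gy (-0.021) and with a covariate for entries often traced to rRNA or GC-rich background after 2 Gy (-0.068) and 10 Gy (-0.061). It was also negative after 2 Gy without control replicate 1 (-0.037), and was positive against control in the other settings run.

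The mean of the 8 let-7 members, taken minus the mean of those 40 other miRNAs on the same array, does not move with the scaling. It was 0.43 ± 0.19 in control, 0.53 ± 0.11 after 2 Gy, 0.67 ± 0.083 after 10 Gy and, in the 5x2 Gy group, 0.55 ± 0.026 (SD, n = 3). The control arrays ran from 0.223 to 0.591 and the 10 Gy arrays from 0.588 to 0.754, so that 1 array of each group overlapped. Among the 40 are 4 entries of the rRNA and GC-rich list. That list of 6, all tested, summed to 11.0 to 18.3 times the array percentile in control, 8.20 to 9.81 after 2 Gy, 7.03 to 8.26 after 10 Gy and 8.02 to 9.42 after 5x2 Gy. Without those 4 entries, a choice made after the data were seen, the difference was 0.57 ± 0.11 in control and 0.58 ± 0.082, 0.70 ± 0.068 and 0.59 ± 0.024 in the 2 Gy, 10 Gy and 5x2 Gy groups, and the 10 Gy and control ranges overlapped (0.626 to 0.758 and 0.439 to 0.637). The part of these entries in the family's values was not tested further than by the covariate above.

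The distances between members also shifted by up to 0.15 in size between groups, about as much as the family median changed, and groups did not overlap in 4 cases. That count covers 8 members in each of 2 Gy, 10 Gy and 5x2 Gy minus control, 5x2 Gy minus 10 Gy and 10 Gy minus 2 Gy. Random order alone separates groups of 3 arrays each with a probability of 0.1, so the 4 cases are described and not read as changes of single members. A member's level minus the mean of the other 7 let-7 members on the same array, the distance used here, does not depend on scaling. For let-7d this difference was -0.38 ± 0.063 in control, -0.48 ± 0.041 after 2 Gy and -0.49 ± 0.061 after 10 Gy (SD, n = 3). Neither irradiated group overlapped with control, and after 5x2 Gy it was -0.42 ± 0.041. Let-7b stood at 0.28 ± 0.079 after 10 Gy and 0.12 ± 0.072 after 5x2 Gy, without overlap, and both means lay inside the control range of 0.109 to 0.443. Let-7e was 0.14 higher after 10 Gy than in control, with overlap. Let-7f was 0.84 ± 0.043 after 2 Gy and 0.73 ± 0.10 after 10 Gy, also without overlap. For the other members and comparisons the groups overlapped.

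**Figure D4:**
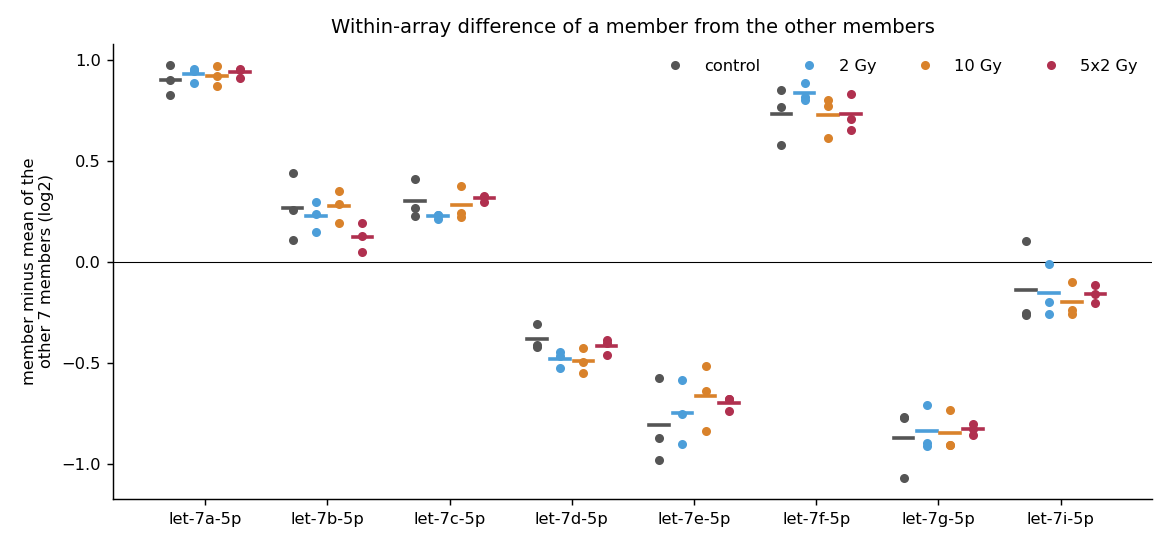
Each let-7 member's level minus the mean of the other 7 let-7 members on the same array (log2), with 1 point per array and a line at the group mean. The offset of a member from zero reflects its probes as well as its amount, so only shifts between groups can be read, such as let-7d at -0.38 in control and -0.49 after 10 Gy.

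Across the 12 arrays the let-7 members covered a smaller range at the median than the other detected miRNAs. Their range from the lowest to the highest array had a median of 0.43 and ran from 0.30 for let-7i to 0.78 for let-7e. The 40 other miRNAs had a median range of 0.76, running from 0.25 to 3.16. Spots of a let-7 probe on 1 array had a coefficient of variation of 1.25 to 25.5%, with a median of 7.08%.

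Pairs of members moved together to different degrees. Over the 12 arrays Pearson's r among the 28 pairs of let-7 members ran from 0.13 (let-7f with let-7i) to 0.91 (let-7b with let-7e), as a description of arrays that share scaling and brightness. The 4 pairs differing by 1 base had r of 0.56 to 0.89 with a median of 0.85, and the 6 pairs differing by 4 bases had 0.13 to 0.76 with a median of 0.44. Pairs differing by 2 and 3 bases had medians of 0.70 and 0.73. The 1 pair differing by 5 bases had 0.35, and the 1 pair differing by 6 had 0.45. Let-7b and let-7e, the closest pair in level pattern, differ from each other by 3 bases.

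MiR-98-5p, the member encoded beside let-7f-2, was near the limit of detection and no direction could be read for it. It was detected on control replicate 3 alone among the controls, on 3 of 3 arrays after 2 Gy, on 10 Gy replicates 1 and 3, and on 3 of 3 after 5x2 Gy. Its levels were -4.02, -2.52 and -3.95 in control, -3.25, -3.93 and -3.25 after 2 Gy, -3.40, -3.15 and -4.01 after 10 Gy, and -4.06, -3.95 and -3.90 after 5x2 Gy. The floor under which values are set to a common level is -4.06. The highest scaled value came from control replicate 2, the dimmest array, where it was not detected. In unscaled intensity units the same probes read 21.1, 19.3 and 45.4 in control, 33.3, 59.1 and 34.4 after 2 Gy, 36.9, 34.6 and 51.1 after 10 Gy, and 59.0, 71.4 and 67.4 after 5x2 Gy. In those units the 5x2 Gy arrays are therefore mostly the highest, while in scaled levels they are among the lowest. The change in 5x2 Gy minus control was -0.48 (95% interval -1.42 to 0.47, limma adjusted p = 0.525), and with the slide as a block it was 0.26. It passed the threshold in opposite directions with the processing: higher with the percentile over all probes (1.11, limma adjusted p = 0.000914) and without scaling (0.97, 0.0179), and lower with the rRNA and GC-rich covariate (-1.05, 0.0101).

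**Figure D5:**
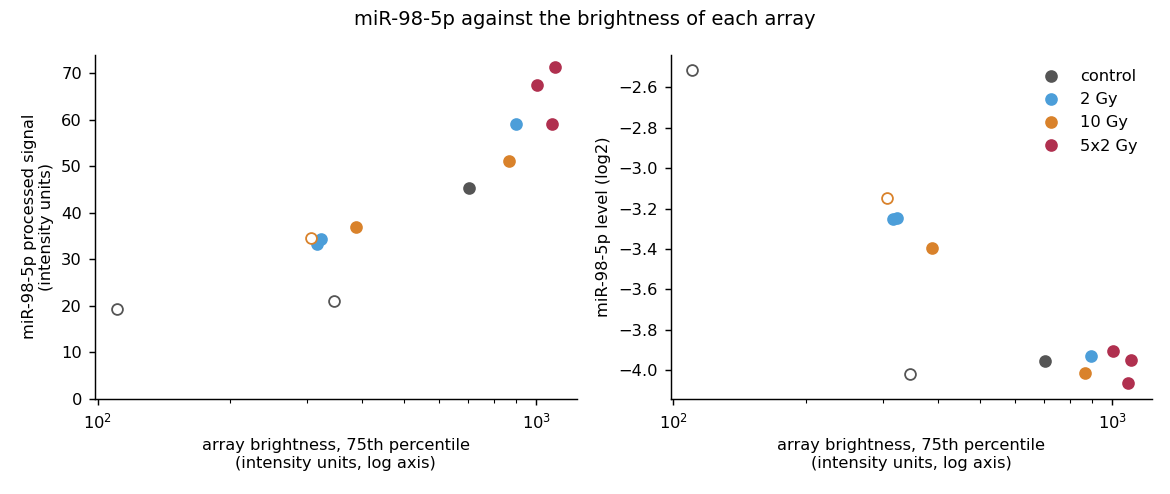
Processed signal (left, intensity units) and scaled level (right, log2) of miR-98-5p against the brightness of each array (75th percentile, log axis), with 1 point per array, coloured by group, and open points where it was not detected. The unscaled signal runs from 19.3 on the dimmest array to 71.4 on the brightest, and the scaled level is highest, at -2.52, on the dimmest array.

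The passenger strands of the family gave no measurable signal. All 7 on the array (let-7a-1, b, c-1, d, f-1, g and i, 3p) were detected on 0 of 12 arrays, so no change could be tested for them.

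Several let-7 genes lie beside miR-99, miR-100 and miR-125 genes. By the RefSeq annotation, 0 genes stand between let-7e and either miR-99b or miR-125a, or between let-7c-1 and either miR-99a or miR-125b-2, while 2 stand between let-7a-2 and miR-125b-1. After 5x2 Gy, 2 of these 5 partners rose against control and 0 fell, and the same number rose against 10 Gy, beside 12.7% and 2.54% of all tested. With the slide as a block neither passed: miR-125a-5p was at 0.17 and 0.19 (limma adjusted p of 0.321 and 0.314) and miR-100-5p at 0.067 and 0.085 (0.321 and 0.239). MiR-125a-5p was 0.32 higher than control (SE 0.052, limma adjusted p = 0.00623) and 0.29 higher than after 10 Gy (limma adjusted p = 0.0215). MiR-100-5p passed in both (0.23 and 0.20, limma adjusted p of 0.00743 and 0.047), but lay near the floor and was detected on 6 of 12 arrays, so no fold is given. MiR-125b-5p was at 0.42 against control (limma adjusted p = 0.147) and miR-99b-5p at 0.44 (limma adjusted p = 0.266), and miR-99a-5p sat at the floor. After 2 Gy and 10 Gy none of the 5 passed. The 2 partners of let-7e, miR-125a-5p and miR-99b-5p, had values of 0.024 and -0.14 after 10 Gy, where let-7e itself was at 0.30.

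Among the 40 other miRNAs detected on all arrays, those most like the mean of the 8 let-7 members over 12 arrays were miR-199a-3p (Pearson r = 0.865), miR-34b-5p (0.789), miR-34c-5p (0.764), miR-125b-5p (0.676) and miR-322-5p (0.612). All share arrays and scaling with let-7. MiR-34b-5p and miR-34c-5p are direct targets of p53. The 4 entries at the other end of that order were miR-720, miR-709, miR-494-3p and miR-1224-5p, with r of -0.731 to -0.825, all from the rRNA and GC-rich list.

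The cell type was checked against marker lists. The 6 epithelial miRNAs (the miR-200 family with miR-141 and miR-429, and miR-205) were detected on 0 arrays, although the line is labelled a carcinoma. Of 5 mesenchymal miRNAs 4 were tested, and miR-145a-5p was detected on 0 arrays. Signals summed over all 5 were 1.68 to 2.03 times the array percentile in control and 1.81 to 2.23 after 2 Gy. They were 2.14 to 2.30 after 10 Gy and 2.23 to 2.36 after 5x2 Gy. Of the 4 tested, 2 rose after 5x2 Gy, miR-199a-5p (0.33, limma adjusted p = 0.0103) and miR-214-3p (0.46, limma adjusted p = 0.0407), beside 12.7% of all tested. With the slide as a block they were at 0.29 and 0.71 and did not pass (limma adjusted p of 0.313 and 0.254). Of 7 blood cell miRNAs, miR-142a-3p was detected on all 12 arrays, with a mean level of -0.89 in control. MiR-142a-5p was detected on 6 arrays and lay near the floor, at -3.90 in control. The other 5, miR-223-3p and miR-451a included, were detected on 0 arrays. The part of the marker miRNAs in the let-7 values was not tested.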

How the data were processed

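Scanner files of 12 arrays were used. Per the file headers and the submitters' processing notes, the authors extracted spot intensity on a linear scale with Agilent Feature Extraction 10.7.3.1, background-subtracted and detrended. The deposited spot flags (control, outlier, well above background, saturated) served as filters. The series table, as the authors deposited it, gives log2 values that equal the log2 processed signal plus a constant for each array (shifts of -0.27 to 0.51; column medians -0.19 to 1.14), and was an alternative.

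Control spots and flagged outliers, 2.04 to 4.95% per array, were dropped, and 0 spots were saturated. The spots of each probe were averaged, arrays were divided by the percentile described above, and a floor of 0.0598 (log2 -4.06) was set before log2. Probes detected on at least 3 arrays were averaged per miRNA. Comparisons used limma 3.58.1 (R 4.3.3), with files read by the R package data.table, version 1.17.8, without covariates (8 residual and 0.45 prior degrees of freedom), two-sided. A permutation of 3 against 3 arrays cannot go below 0.1. The scanner files give median spot signals, which normexp used with an offset of 50. The number of arrays limits the precision. The headers name mm9 and the sequence tables GRCm38.p6, so no coordinates are given. All 9 members are named, with the 5 miRNAs most correlated with them, and 0 columns of other samples were present. Members and lists were chosen with earlier results of these data known. The script was tested on simulated data.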

Additional observations from a re-analysis of the deposited data

How the results depend on the processing

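Where 3 members were called in 5x2 Gy minus control as reported, 9 of 9 were called with the percentile over all probes and without scaling, and 8 in the authors' deposited log2 table. With quantile normalization, normexp, a floor 4 times lower or 2 times higher, miRNAs detected on all arrays alone, the slide as a block, or only the 2 groups compared, 0 were called. With the rRNA and GC-rich covariate 4 were called, let-7c, let-7g and let-7i higher and miR-98-5p lower, and with the brightness covariate 3, let-7b, let-7c and let-7e. With the floor 2 times higher the smallest limma adjusted p of a member was 0.0501, just above the threshold. All miRNAs called in that comparison numbered 15 as reported, 102 with all probes, 86 without scaling, 84 in the deposited table, 7 with quantile normalization, 5 with normexp, 25 and 7 with the lower and higher floor, 6 among those detected on all arrays, 1 with the slide block, 28 and 41 with the brightness and rRNA and GC-rich covariates, and 10 with only 2 groups. With 1 array left out, 0 to 3 members and 7 to 16 of all miRNAs were called, and all 3 members only without 10 Gy replicate 1 or 3. In 5x2 Gy minus 10 Gy, 7 members were called with the percentile over all probes, beside 90 of all 118 tested. In 10 Gy minus control, 2 were called with the brightness covariate, beside 26 of all 118. The cause was not tested. Common shifts of the 71 miRNAs above the floor in 5x2 Gy minus control were 1.64 with all probes, 1.75 without scaling, 1.45 in the deposited table, -0.033 with quantile normalization and -0.42 with normexp.

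Replicate numbers in the labels did not pair the arrays: over 18 pairs the correlation of deviations ran from -0.93 to 0.85, with 8 over 0.1. With a replicate block 2 members were called in 5x2 Gy minus control, let-7c and let-7g, and 10 of all miRNAs.

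With the rRNA and GC-rich covariate the sign turned in 10 Gy minus 2 Gy let-7f -0.023, and in 10 Gy minus control let-7b -0.078, let-7d -0.061, let-7e -0.065, let-7f -0.070, and in 2 Gy minus control let-7a -0.065, let-7b -0.19, let-7e -0.18, let-7f -0.048, miR-98 -0.68, and in 5x2 Gy minus control let-7b -0.099. With the percentile over all probes the sign turned in 10 Gy minus 2 Gy miR-98 0.23, and in 10 Gy minus control miR-98 0.44, and in 2 Gy minus control let-7c 0.17, let-7d 0.15, and in 5x2 Gy minus 10 Gy let-7b 1.04, miR-98 0.67, and in 5x2 Gy minus control miR-98 1.11. With quantile normalization the sign turned in 10 Gy minus 2 Gy miR-98 0.0091, and in 10 Gy minus control miR-98 0.15, and in 2 Gy minus control let-7c 0.058, let-7d 0.014, and in 5x2 Gy minus 10 Gy let-7a -0.0027, let-7c -0.11, let-7e -0.11, let-7f -0.18, let-7g -0.11, let-7i -0.023, and in 5x2 Gy minus control let-7b -0.023. In the authors' deposited log2 table the sign turned in 10 Gy minus 2 Gy miR-98 0.027, and in 10 Gy minus control miR-98 0.45, and in 2 Gy minus control let-7c 0.38, let-7d 0.36, and in 5x2 Gy minus 10 Gy let-7b 0.84, miR-98 0.49, and in 5x2 Gy minus control miR-98 0.93. With the floor 2 times higher the sign turned in 10 Gy minus 2 Gy miR-98 2.99e-05, and in 2 Gy minus control miR-98 -0.18. With the slide as a block the sign turned in 10 Gy minus 2 Gy miR-98 0.20, and in 10 Gy minus control miR-98 0.22, and in 5x2 Gy minus 10 Gy let-7c -0.012, let-7g -0.042, let-7i -0.0084, miR-98 0.042, and in 5x2 Gy minus control miR-98 0.26. Within slide 1 the sign turned in 10 Gy minus 2 Gy miR-98 0.20, and in 10 Gy minus control miR-98 0.22. With normexp the sign turned in 10 Gy minus control let-7d -0.029, and in 2 Gy minus control let-7b -0.000124, let-7g -0.034, let-7i -0.021, miR-98 -0.21, and in 5x2 Gy minus 10 Gy let-7d -0.0042, let-7e -0.10, let-7g -0.087, let-7i -0.000349, and in 5x2 Gy minus control let-7d -0.033, let-7g -0.066. Without scaling the sign turned in 10 Gy minus control miR-98 0.27, and in 2 Gy minus control let-7c 0.58, let-7d 0.56, and in 5x2 Gy minus 10 Gy let-7b 1.08, miR-98 0.70, and in 5x2 Gy minus control miR-98 0.97. With the brightness covariate the sign turned in 10 Gy minus control miR-98 0.33, and in 2 Gy minus control let-7c 0.010, and in 5x2 Gy minus 10 Gy let-7b 0.081, let-7g -0.0072, miR-98 0.19, and in 5x2 Gy minus control miR-98 0.52. With the brightest probe the sign turned in 2 Gy minus control let-7d 0.028, and in 5x2 Gy minus 10 Gy let-7e -0.021. Within slide 2 the sign turned in 5x2 Gy minus 10 Gy let-7c -0.012, let-7g -0.042, let-7i -0.0084, miR-98 0.042. In 2 Gy minus control the lowest and highest values with 1 array left out were let-7a -0.026 to 0.15, let-7b -0.061 to 0.17, let-7c -0.042 to 0.038, let-7d -0.12 to 0.024, let-7e -0.040 to 0.28, miR-98 -0.24 to 0.51. In 10 Gy minus control the lowest and highest values with 1 array left out were let-7d -0.017 to 0.13, miR-98 -0.28 to 0.47. In 5x2 Gy minus control the lowest and highest values with 1 array left out were let-7b -0.0091 to 0.22, miR-98 -0.74 to 0.014. In 5x2 Gy minus 10 Gy the lowest and highest values with 1 array left out were let-7e -0.079 to 0.093, let-7f -0.024 to 0.094. In 10 Gy minus 2 Gy the lowest and highest values with 1 array left out were let-7f -0.036 to 0.076, miR-98 -0.27 to 0.20. The floor limits miR-98-5p.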
